A study of Apis mellifera with 4 samples.

Results

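The long unnamed genes of the honeybee are those that carry only an automatic LOC number as their name and that spread over at least 100 kb of the genome, from the first to the last annotated base. They were taken from the gene table of queen and worker larvae as genes with an ID starting with LOC, an end minus start of at least 100000 bases, 2 to 19 exons and at least 10 exon reads over all samples. The table held 11156 genes, of which 8586 had a LOC number and 169 of those reached 100 kb. Of these, 22 had 20 exons or more, 15 had under 2 exons and 17 had under 10 exon reads, which left 115 long LOC genes. For comparison, 5890 shorter LOC genes met the same limits on exons and reads, of which 4681 spanned under 10 kb, 1049 spanned 10 to under 50 kb and 160 spanned 50 to under 100 kb. No value of a caste entered the choice, but the limit of 10 exon reads acts on abundance, so that the abundances below describe genes that passed it.

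RNA-seq counted reads of whole larvae of Apis mellifera at 60 hours, with 2 samples of larvae raised as queens and 2 of larvae raised as workers, each a pool of larvae. Queen larvae were grafted into queen cells of a hive without a queen and fed royal jelly, while worker larvae were not grafted, stayed in their own cells and were kept in another hive. Grafting, food and hive therefore differ together between the castes and cannot be told apart, and in whole larvae fewer cells of a type and less RNA per cell cannot be told apart either. The exons of all genes received between 4949093 and 5476218 reads per sample and the introns between 838363 and 973912 reads. The p-values rest on the spread between the 2 pools of a caste, which the test draws towards the spread seen across all tested genes.

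A gene is copied in full length into a primary transcript, and splicing then removes the introns and joins the exons to the mature messenger RNA. In insects most introns are short, and the genes with very long introns include well-known developmental and nervous system genes of Drosophila. A read that lies wholly within an intron can therefore come from RNA that holds that intron, or from other RNA made there. A read that matches several places can also come from elsewhere in the genome. Intron reads were taken as the reads counted on the whole gene minus those counted on its exons. The intron share is the part of the gene reads that are intron reads. The sources used here do not say where reads across the border of an exon and an intron were counted. In the 24570 pairs of a gene and a sample with such reads, they and the exon-exon reads together exceeded the exon reads in 0, while they exceeded the intron reads in 5465, so they were taken as part of the exon reads.

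The long LOC genes spanned 100362 to 905193 bases, with a median of 156958. Their exons were a small part of this length, with a median summed exon length of 2906 bases and a median summed intron length of 153712 bases. The shorter LOC genes had a median exon length of 1844 bases and a median intron length of 2304 bases. The long genes had a median of 10 exons against 6, and 4 of the 115 had more than 1 annotated transcript. They lay on 78 scaffolds of the genome assembly Amel_4.5, and 19 scaffolds held 2 or more of them, with 5 on a single scaffold at most. Another gene of the table overlapped 53 of the long genes, and 39 of them held a whole gene inside their span, while none lay inside another gene. The remaining 62 overlapped no other gene.

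The values next to the limit overlapped on both sides. Just above it, LOC408801 (100362 bases) had 26.9% of its reads in introns, LOC100576509 (100582 bases) 63.6% and LOC412993 (102104 bases) 70.6%. Just under it, LOC408547, 1 base short of the limit, had 61.3%, LOC408714 (99798 bases) 19.6% and LOC408857 (99175 bases) 21.0%.

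Most reads of the long LOC genes fell in introns. Their median intron share over the 4 samples was 64.1%, with quartiles of 46.3 and 84.7%, against a median of 6.90% in the shorter LOC genes, with quartiles of 1.59 and 20.8%. In 80 of the 115 long genes, or 69.6%, more reads fell in introns than on exons, against 472 of the 5890 shorter genes, or 8.01%. The share rose with span, from a median of 4.81% under 10 kb to 19.3% at 10 to under 50 kb, 42.0% at 50 to under 100 kb, 62.3% at 100 to under 200 kb (89 genes) and 81.4% at 200 kb or more (26 genes). The share was lower in the genes with more exon reads. The median was 79.3% in the 60 long genes with a mean under 50 exon reads per sample, 63.1% in the 29 with 50 to under 200 and 30.1% in the 26 with 200 or more, against 19.05, 7.20 and 3.29% in the shorter genes of the same classes. In the long genes of the last class, therefore, exons held most reads of the median gene. The 57 genes with other names that met the same limits of span, exons and reads had a median share of 57.1%. These comparisons across genes carry no test, because genes measured in the same 4 samples are not replicates.

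**Figure D1:**
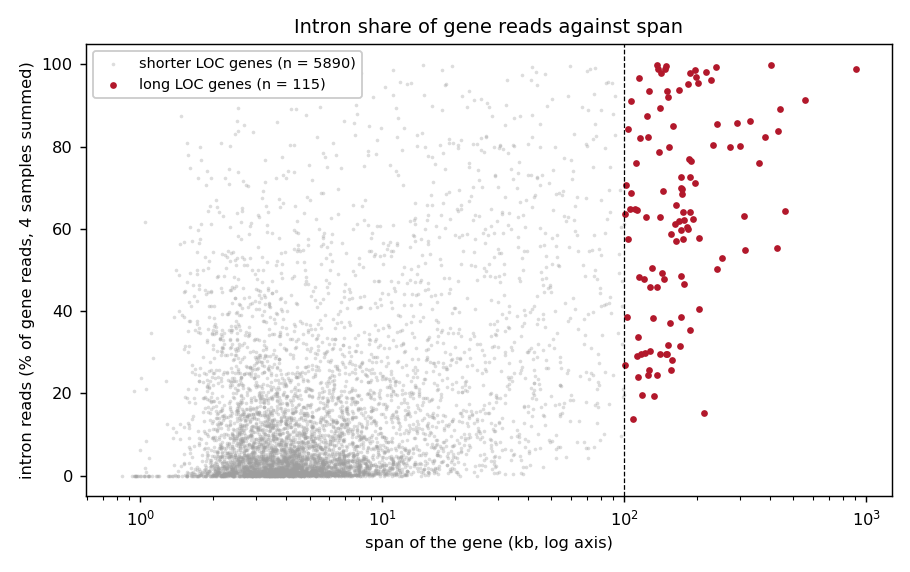
Each point is a LOC gene with 2 to 19 exons and at least 10 exon reads, with its span in kb on a log axis and the intron reads as a percent of the gene reads, summed over the 4 samples. The 115 long genes lie right of the dashed line at 100 kb and between 13.8 and 99.9%, while the 5890 shorter genes crowd at low values around their median of 6.90%.

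The order of the groups was the same in each sample. The median intron share of the long genes was 61.4% in queen sample 1, 62.5% in queen sample 2, 62.7% in worker sample 1 and 74.5% in worker sample 2. That of the shorter genes was 6.34%, 6.57%, 5.93% and 6.89% in the same order. Worker sample 2 stood apart from the other samples, including the other worker sample. It gave the highest intron share of the 4 samples in 71 of the 115 long genes, and 86 of them had more intron than exon reads there, against 67 to 79 in the other samples. Without worker sample 2 the median of the long genes was 61.0%. Over all genes together, introns took 15.4% of the gene reads in worker sample 2, within the 13.3 to 16.1% of the other samples.

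Per base of sequence, introns gave far fewer reads than exons in the long genes too. The RPKM of the authors scales the exon reads by exon length and by all gene reads of the sample, and the intron level was computed on the same scale from the intron reads and the intron length. The median intron level of the long genes was 0.107 on the RPKM scale, against 0.391 in the shorter genes. As a percent of the exon level of the same gene, the median intron level was 3.14% in the long genes, with quartiles of 1.55 and 7.67%, and 4.18% in the shorter genes, with quartiles of 1.09 and 12.5%. By span this percentage was 4.29% under 10 kb, 4.16% at 10 to under 50 kb and 2.95% at 50 to under 100 kb. On all reads the median intron share was thus larger in the long genes, while the median intron level relative to the exons was not. Of the intron reads 75.6% matched a single place in the long genes and 54.3% in the shorter genes. With such reads alone the median intron share was 62.5 and 2.22%, and the relative level was not computed. Among the long genes with no overlapping gene the relative level on all reads was 2.99%, and 2.97% among the shorter genes with none.

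Reads across borders were counted apart. Those that run from an exon into an intron can come from RNA that still held the intron or, like intron reads, from other RNA. Of the reads that crossed any exon end, the median share that ran on into the intron, rather than into the next exon, was 19.1% in the long genes and 8.97% in the shorter ones, and 18.5% at 50 to under 100 kb. At a mean under 50 exon reads per sample it was 21.5% in both the long and the shorter genes, at 50 to under 200 it was 14.7 and 9.52%, and at 200 or more 16.6 and 5.35%. These are few reads per gene, with 6933 exon-exon reads and 1838 intron-exon reads in all 115 long genes. A large part of the intron-exon reads came from LOC727375, described below, whose values are uncertain. No exon-exon read was counted in 3 of the long genes and a single one in 8.

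**Figure D2:**
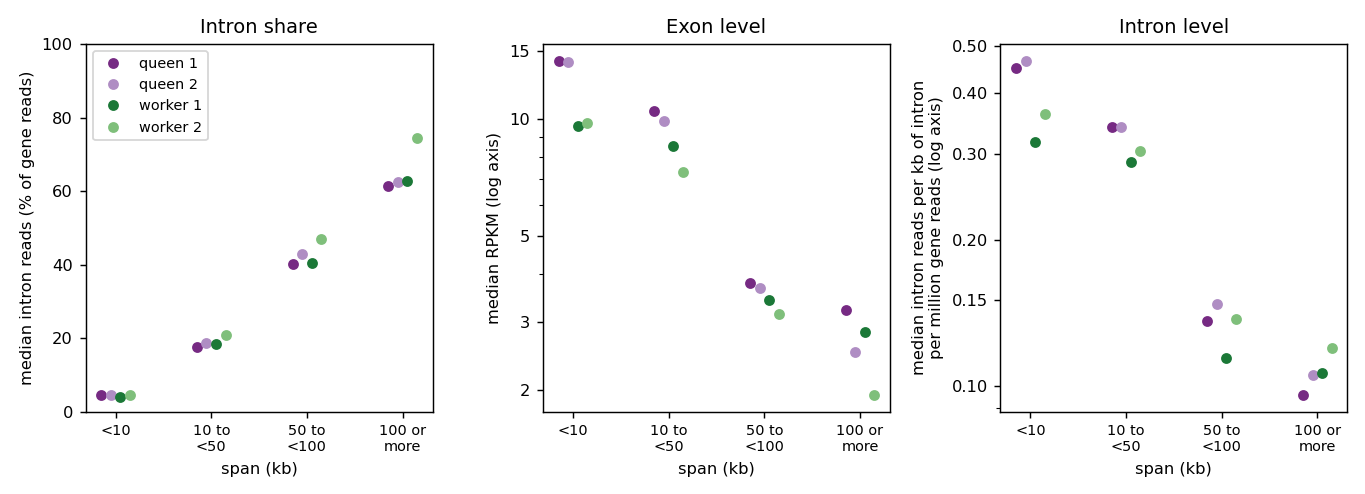
Median intron share, median RPKM of the exons and median intron level in each of the 4 samples, for LOC genes in 4 classes of span in kb, with log axes for the levels. In every sample the intron share rises and both levels fall from the shortest to the longest class, and worker sample 2 has the highest intron share and the lowest RPKM of the longest class.

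Most reads of the long genes lay in introns with and without overlapping genes. The median intron share was 63.1% in the 62 long genes with no overlapping gene and 76.1% in the 53 with one. Of the 39 long genes with a whole gene inside, the reads counted on the inner genes reached 10% of the intron reads in 3. Genes that overlap only in part are not in this count. The sources used here do not say on which gene a read lying in both was counted. The count therefore does not tell where the intron reads came from. Reads that match several places mattered for single genes. In 14 of the 115 long genes under 50% of the intron reads matched a single place in the genome, while with single-match reads alone the median intron share of the long genes was 62.5%. The shorter genes fell from 6.90 to 2.22% with single-match reads.

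Few genes held most of the intron reads. The 115 long genes had 387214 intron reads and 62963 exon reads, so that 86.0% of their reads were intron reads, and they held 10.4% of the intron reads of all genes and 0.301% of the exon reads. A single gene, LOC724238, gave 54.3% of these intron reads and the top 5 genes gave 77.2%. Without LOC724238 the pooled share was 73.8%, and the other 114 genes held 4.76% of all intron reads.

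LOC724238 (scaffold NW_003377946 from 101853 to 237956, Amel_4.5, 15 exons) had 23 and 18 exon reads in the queens and 42 in each of the workers. Its introns had 46063 and 49639 reads in the queens and 43582 and 70847 in the workers. The intron level of 64.2 on the RPKM scale lay above its mean exon RPKM of 1.67, the reverse of the usual order. Of its intron reads 89.7% matched a single place, and the 1 gene inside its span, LOC100576540, was counted with 3469 reads. The intron reads of LOC724238 lay outside the exons that the table gives it.

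LOC100576626 (scaffold NW_003378001 from 80884 to 319550, 5 exons) had a like pattern with no overlapping gene. It had 25 and 27 exon reads in the queens and 42 and 31 in the workers, beside 5666 and 5826 intron reads in the queens and 5197 and 6518 in the workers. Of the intron reads 97.8% matched a single place. Its castes did not overlap on exon reads, but the difference did not pass the test (log2 fold change -0.95, SE 0.30, edgeR adjusted p = 0.089).

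LOC727375 (scaffold NW_003378170 from 341065 to 491011) differed in kind. It had 2 exons with a summed length of 807 bases, the highest mean RPKM of the long genes at 103.6, and no exon-exon read beside 509 intron-exon reads. Its span overlapped 24 genes and held 22 of them, and only 4.67% of its 30305 intron reads and 37.7% of its exon reads matched a single place, so that its values are uncertain. LOC726948 had 9, 3, 6 and 6 exon reads (queens 1 and 2, then workers 1 and 2) beside 3639, 3935, 3235 and 4203 intron reads. Of these 46.3% matched a single place.

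**Figure D3:**
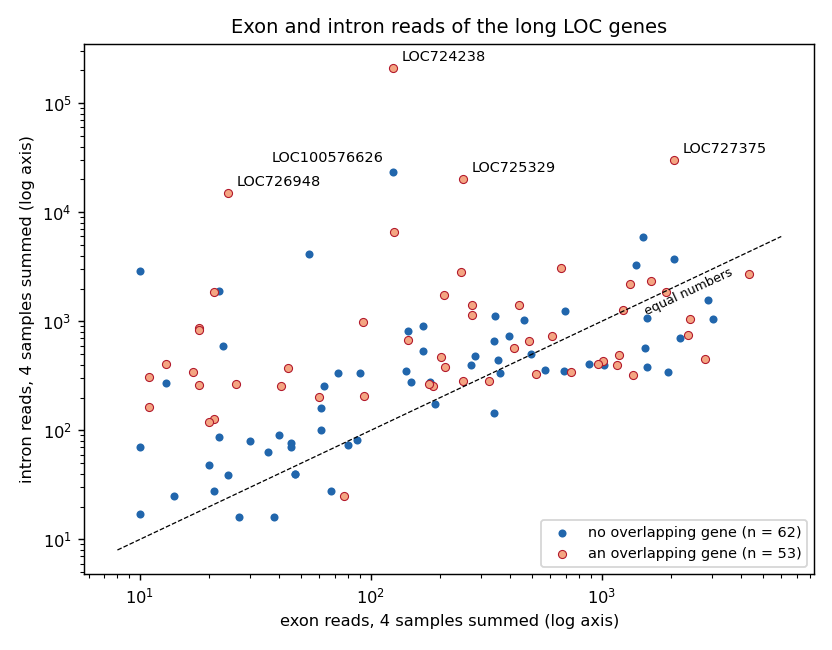
Exon reads against intron reads of each of the 115 long LOC genes, summed over the 4 samples, both on log axes, with genes that overlap no other gene in blue and those that overlap one in orange, and a dashed line of equal numbers. Most points lie above the line, and LOC724238 stands at 125 exon reads and 210131 intron reads.

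The highest intron shares among genes with at least 100 gene reads were those of LOC724238 (99.9%), LOC726948 (99.8%), LOC409692 (99.7%), LOC100576626 (99.5%) and LOC411116 (98.9%). LOC409692 had 824, 797, 403 and 861 intron reads on 5, 3, 1 and 1 exon reads, and no overlapping gene. The lowest shares were those of LOC726544 (13.8%), LOC100578680 (15.2%), LOC724344 (19.3%), LOC408389 (19.5%) and LOC409928 (24.0%). All of these last 5 had between 1363 and 2796 exon reads. LOC100578680, with a span of 214 kb, 5 exons and no overlapping gene, had 239 and 536 exon reads in the queens and 574 and 583 in the workers, beside 59, 91, 100 and 96 intron reads. Across the 115 genes the intron share fell with the mean RPKM (Spearman's rho -0.51) and rose with span (rho 0.32). These points share the same 4 libraries, and the exon reads enter both the RPKM and the share.

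The longest gene was LOC725329, with 905193 bases on scaffold NW_003378077 (from 59421 to 964614) and 8 exons. It had 68 and 71 exon reads in the queens and 59 and 53 in the workers, beside 4233 and 4403 intron reads in the queens and 5020 and 6651 in the workers. Its intron share was 98.8%, but only 33.9% of its intron reads matched a single place. LOC410353 (557 kb) had an intron share of 91.3% and a mean RPKM of 0.947. LOC409780 (460 kb), with no overlapping gene, had 538, 527, 421 and 569 exon reads and a mean RPKM of 20.5, and its intron share lay between 62.4 and 66.8% in the 4 samples. The mean RPKM of these 3 longest genes thus differed widely.

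The long LOC genes were of lower abundance than the shorter ones. Their median RPKM over the 4 samples was 2.94, with quartiles of 0.738 and 8.29, against 11.4 in the shorter genes, with quartiles of 4.03 and 28.0. By sample the median of the long genes was 3.22 and 2.51 in the queens and 2.83 and 1.95 in the workers, and that of the shorter genes was 13.0 and 13.0 in the queens and 9.35 and 9.23 in the workers. A mean RPKM under 1 was found in 37 of the 115 long genes, or 32.2%, against 8.78% of the shorter genes. A mean RPKM of 10 or more was found in 25 long genes, or 21.7%, against 54.1%. The lower abundance began under the limit of 100 kb. The median was 12.2 under 10 kb, 9.75 at 10 to under 50 kb and 3.50 at 50 to under 100 kb, and among the long genes themselves it was 2.38 at 100 to under 200 kb and 4.29 at 200 kb or more. The long genes with other names had a median of 4.20. In 51 of the 115 long genes the median coverage that the authors deposited was 0 in all 4 samples.

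Of the long LOC genes, 10 held 41.4% of the exon reads of the group and 14 held more than all others together. The gene with the most was LOC411048, with a mean RPKM of 45.8, followed by LOC408372 (45.9), LOC411557 (26.4), LOC726544 (28.4), LOC410341 (23.8), LOC409928 (26.1), LOC411113 (18.0), LOC409780 (20.5), LOC727375 (103.6) and LOC100578680 (18.9). LOC408372 had 1024 and 858 exon reads in the queens and 669 and 484 in the workers, with no overlapping gene. Its difference was smaller than the spread allows to call (log2 fold change 0.24, SE 0.17, edgeR adjusted p = 0.36). LOC726544 had 917 and 792 exon reads in the queens and 586 and 501 in the workers, yet after scaling its log2 fold change was 0.19 (SE 0.12, edgeR adjusted p = 0.32).

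A name or product was found for few of these genes. The reference annotation of a later assembly (Amel_HAv3.1) held an entry of the same gene ID for 92 of the 115, and the symbol there differed from the LOC number in 1. The gene lists of the study gave a name for another 5. LOC551828 is listed as osp, after outspread of Drosophila. It had 114 and 90 exon reads in the queens and 75 and 45 in the workers and was not called (log2 fold change 0.30, SE 0.28, edgeR adjusted p = 0.50). LOC409062 is listed as similar to alien, which in Drosophila is a subunit of the COP9 signalosome, a regulator of protein degradation. It had 590, 525, 405 and 384 exon reads, a mean RPKM of 40.5 and a log2 fold change of 0.03 (SE 0.10), and 49.2% of its reads were in introns.

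LOC724833 is listed as similar to Matrix metalloproteinase 2, an enzyme that cleaves proteins of the extracellular matrix. It had 250 and 192 exon reads in the queens and 274 and 248 in the workers, which after scaling was higher in workers (log2 fold change -0.71, SE 0.15, edgeR adjusted p = 0.035). This call held in only 8 of 15 alternative fits. LOC409774 is listed as similar to Nucleosome remodeling factor - 38kD, in Drosophila a subunit of a chromatin remodelling complex. Its exon level was 31.4 and 32.9 CPM in the queens and 66.0 and 44.1 CPM in the workers, with no call (log2 fold change -0.78, edgeR adjusted p = 0.067), and its intron reads of 73, 76, 120 and 138 were called higher in workers (log2 fold change -1.26, SE 0.24, edgeR adjusted p = 0.0037). LOC552397, for which the lists give 2 different Drosophila genes without names, was called on introns only, with 187 and 217 intron reads in the queens and 392 and 342 in the workers (log2 fold change -1.32, edgeR adjusted p = 0.0015). For the other genes no function is given here.

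To compare the castes, exon reads of all genes were fitted together with the quasi-likelihood test of edgeR after scaling by TMM factors, which make the bulk of genes equal between libraries, and called where the Benjamini-Hochberg adjusted p was below 0.05. A positive log2 fold change is higher in queens. The SE printed with it is its size divided by the square root of the F value of the same test. It therefore adds no support beyond the p-value. Of the 115 long genes 88 passed the filter on low counts. The 27 that did not had 10 to 44 exon reads in all. For a single gene, 2 samples against 2 allow an exact permutation test no two-sided p under 0.333.

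On exon reads 15 of the 88 tested long genes were called higher in workers, or 17.0%, where 12.0% of all 7833 tested genes were. Only 2 were called higher in queens, or 2.27%, where 6.32% of all tested genes were. Their log2 fold changes had a median of -0.37, against 0.01 over all tested genes and 0.01 over the shorter LOC genes, and 60 of the 88 were below 0. In 45 of the 88 both worker samples had more scaled reads than both queen samples, and in 12 both queen samples had more, where these were 32.1% and 31.7% of all tested genes. The median fell with span also below the limit, from 0.04 under 10 kb to -0.19 at 10 to under 50 kb and -0.36 at 50 to under 100 kb. The shares called higher in workers were 9.64%, 19.4% and 23.6% in these classes, and 20.4% in the long genes with other names. The 17.0% of the long LOC genes was below the shares at 10 to under 50 kb and at 50 to under 100 kb.

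The sign of the median depended on the scaling. With library totals in place of the TMM factors the median of the 88 long genes was 0.17, but that of all tested genes was then 0.55. Of the long genes 18 were then called higher in queens and 5 in workers, where 47.3 and 6.20% of all tested genes were. Relative to all tested genes the long genes lay 0.38 lower with either scaling. The number of calls fell when either worker sample was left out. Without worker sample 1, 1 long gene was called higher in queens and 3 in workers, where 1.26 and 4.37% of all tested genes were. Without queen sample 1 the counts were 1 and 16, where 4.60 and 10.6% of all were, and without worker sample 2 none was called in edgeR's test, although 25 were below 0 and 3 above 0 with an unadjusted p below 0.05. Without worker sample 2, 222 of all tested genes were called higher in workers and 37 in queens, against 942 and 495 with all samples.

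The median of the long genes was lower than that of all shorter genes at each depth. Most of those shorter genes spanned under 10 kb, and at 50 to under 100 kb the median over all depths was -0.36. Classes of span were not compared within depths. At a mean of under 50 exon reads per sample the median log2 fold change was -0.64 in the 33 tested long genes and -0.09 in the shorter genes. At 50 to under 200 reads it was -0.28 in 29 long genes and 0.03 in the shorter ones, and at 200 or more it was -0.31 in 26 long genes and 0.02. Under 50 reads, 33 of the 60 long genes passed the filter, which a gene can pass through the caste where it is higher. Over all depths the median was -0.29 in 115 long genes with a filter of any read. With 10 reads in every sample it was -0.28 in 76 long genes. From the lowest to the highest depth, 3 of 33, 5 of 29 and 7 of 26 long genes were called higher in workers, or 9.09, 17.2 and 26.9%. The shares were 6.46, 7.69 and 17.4% of the shorter genes and 6.88, 7.98 and 16.7% of all tested genes. Towards queens 1, 0 and 1 of the long genes were called, where 2.18, 4.28 and 9.26% of all tested genes were.

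Markers of fat body and muscle were higher in workers in these samples. Of 7 fat body genes of a list, the 6 in the table (hexamerins, vitellogenin and transferrin) were all called higher in workers, with a summed level of 18592 to 20935 CPM (reads scaled to a common library size with the TMM factors) in the queens and 241779 to 262084 in the workers, and none was at 0. Of 12 muscle genes of a list, the 5 in the table were all called higher in workers, with summed levels of 737 to 768 and 3018 to 3126. Of 14 neuron genes of a list 9 were in the table. Of these 3 could be tested and none was called by edgeR. The summed levels of the 9 were 33.6 to 35.5 in the queens and 36.4 to 45.5 in the workers. Whether these tissues take part in the difference of the long genes was not tested.

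Towards workers the clearest call was LOC410626, a gene of 204 kb with 8 exons (scaffold NW_003377989 from 754804 to 958758). It had 54 and 38 exon reads in the queens and 167 and 160 in the workers. Both worker samples were above both queen samples, with a log2 fold change of -2.29 (SE 0.20, edgeR adjusted p = 0.0026). Its introns moved alike, with 86 and 73 reads in the queens and 185 and 228 in the workers (log2 fold change -1.84, SE 0.24, edgeR adjusted p = 2.6e-04). LOC408297 had a larger log2 fold change of -2.72 (SE 0.55, edgeR adjusted p = 0.029) on very few reads, 3 and 2 in the queens and 11 and 14 in the workers. Its intron reads of 24, 18, 22 and 16 were not called.

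LOC724238, the gene with the most intron reads, was also called on its exon reads, given above (log2 fold change -1.50, SE 0.28, edgeR adjusted p = 0.024). Its intron reads had a log2 fold change of -0.73 (SE 0.23, edgeR adjusted p = 0.0504) and were not called. LOC408865 had 19 and 31 exon reads in the queens and 47 and 48 in the workers (log2 fold change -1.38, SE 0.34, edgeR adjusted p = 0.048), while its intron reads of 191, 192, 109 and 180 overlapped between the castes. Only 41.1% of those intron reads matched a single place.

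LOC100576405 had 133 and 130 exon reads in the queens and 218 and 212 in the workers (log2 fold change -1.17, SE 0.14, edgeR adjusted p = 0.0062). Its intron reads of 202, 214, 291 and 529 were also called higher in workers. LOC100578423 had 68, 62, 116 and 95 exon reads (log2 fold change -1.16) and LOC552142, of 362 kb, had 91, 88, 148 and 114 (log2 fold change -1.01). LOC100577393 had 260, 239, 345 and 318 (log2 fold change -0.87, SE 0.12, edgeR adjusted p = 0.0085). In all 4 of these genes exon and intron reads were called in the same direction. The other genes called higher in workers were LOC725043, LOC410480, LOC410951, LOC411557, LOC410649, LOC724833 and LOC411048, with log2 fold changes between -0.85 and -0.59. The exon calls of LOC410649, LOC724833 and LOC411048 each held in only 8 of 15 alternative fits.

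**Figure D4:**
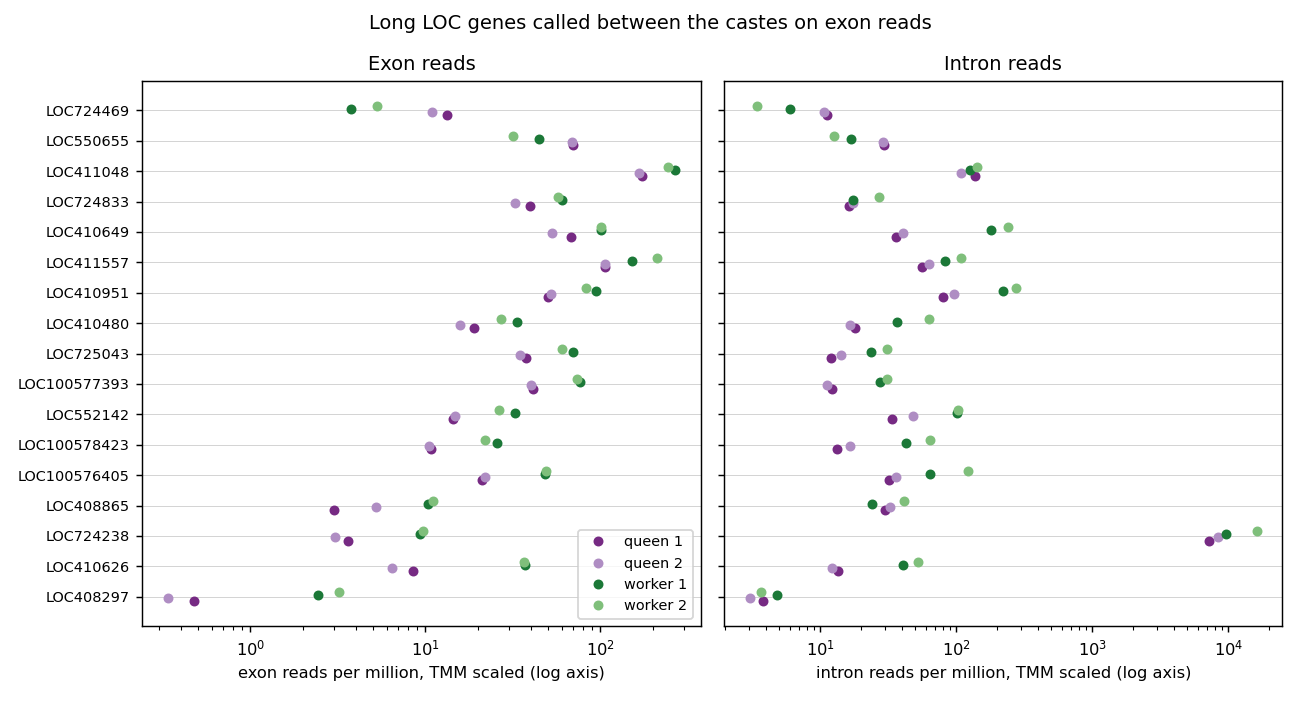
Exon reads (left) and intron reads (right) in CPM, scaled with the TMM factors, in the 4 samples, on log axes, for the 17 long LOC genes called between the castes on exon reads, sorted by their log2 fold change. On exon reads the 2 queen samples and the 2 worker samples do not overlap in any of the 17, and on intron reads LOC724238 stands far above the rest in every sample. The lack of overlap on exon reads adds no support, because the 17 were chosen by their calls on the same reads.

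Towards queens 2 genes were called. LOC724469, with 4 exons over 115 kb and no overlapping gene (scaffold NW_003378035 from 658722 to 773497), had 84 and 65 exon reads in the queens and 17 and 23 in the workers, a log2 fold change of 1.42 (SE 0.29, edgeR adjusted p = 0.031). Its introns had 71 and 63 reads in the queens and 27 and 15 in the workers (log2 fold change 1.21, SE 0.32, edgeR adjusted p = 0.023). LOC550655, listed as similar to a Drosophila gene that has only a CG number, had 441 and 408 exon reads in the queens and 202 and 138 in the workers (log2 fold change 0.86, SE 0.19, edgeR adjusted p = 0.035). Its intron reads of 187, 171, 76 and 55 gave a log2 fold change of 0.99 (SE 0.25, edgeR adjusted p = 0.016). In both genes exons and introns differed in the same direction and by similar amounts. The exon call held in 12 of 15 alternative fits for LOC724469 and in 14 of 15 for LOC550655.

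More of the long genes could be tested on introns than on exons. Intron reads were scaled with the library sizes and TMM factors of the exon reads. Of the 115 long genes 109 passed the filter, among them 24 of the 27 that could not be tested on exons. Of the 109, 30 were called higher in workers, or 27.5%, where 12.6% of all 4341 genes tested on introns were, and 3 were called higher in queens, or 2.75%, where 2.81% of all were. The median log2 fold change was -0.49, against -0.13 over all tested genes and -0.10 over the shorter LOC genes, and 93 of the 109 were below 0. In 69 of the 109 both workers were above both queens and in 6 both queens were above, where these were 36.3% and 19.9% of all tested genes. The castes did not overlap in any of the 33 called genes, which adds no support, because they were chosen by calls on the same reads.

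Again the shorter classes came close to the long genes. The share called higher in workers was 7.31% under 10 kb, 19.4% at 10 to under 50 kb and 26.2% at 50 to under 100 kb, with medians of 0.00, -0.30 and -0.59. The long genes with other names had 17 of 55 called higher in workers and 1 in queens. With library totals the long genes had a median of 0.046 and all tested genes one of 0.41. Of the long genes 13 were then called higher in workers and 6 in queens, where 5.32 and 16.1% of all tested genes were. Of the 33 called genes 16 overlapped no other gene, and in 5 under 50% of the intron reads matched a single place. Without worker sample 2, which had the highest intron shares, 11 of the long genes were called higher in workers and 1 in queens, where 4.45 and 0.829% of all 4341 were. With DESeq2's Wald test 16 were called higher in workers and 2 in queens, where 5.37 and 1.57% of all were.

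The smallest adjusted p-values on introns were those of LOC410649 and LOC410852. LOC410649 had 229 and 239 intron reads in the queens and 821 and 1052 in the workers (log2 fold change -2.47, SE 0.23, edgeR adjusted p = 1.3e-05). Only 37.7% of these reads matched a single place, and with single-match reads the log2 fold change was -1.52. LOC410852 had 390 and 233 intron reads in the queens and 1243 and 1204 in the workers (log2 fold change -2.45, SE 0.24, edgeR adjusted p = 2.5e-05). Of these 6.87% matched a single place, and the gene inside its span, the cytochrome P450 gene CYP336A1, was counted with 35 reads. With the single-match reads alone the log2 fold change of LOC410852 was -2.04.

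LOC100578423 had 84 and 98 intron reads in the queens and 195 and 278 in the workers (log2 fold change -1.84, SE 0.26, edgeR adjusted p = 4.6e-04), with no overlapping gene. LOC410951 had 505 and 575 in the queens and 995 and 1191 in the workers (log2 fold change -1.48, SE 0.21, edgeR adjusted p = 4.8e-04), also with no overlapping gene. Of the intron reads 98.8% matched a single place in LOC100578423 and 99.5% in LOC410951. LOC412859 was the only long gene called higher in queens on introns and not on exons. It had 241 and 382 intron reads in the queens and 65 and 135 in the workers (log2 fold change 1.18, SE 0.34, edgeR adjusted p = 0.033), beside exon reads of 39, 39, 44 and 23.

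**Figure D5:**
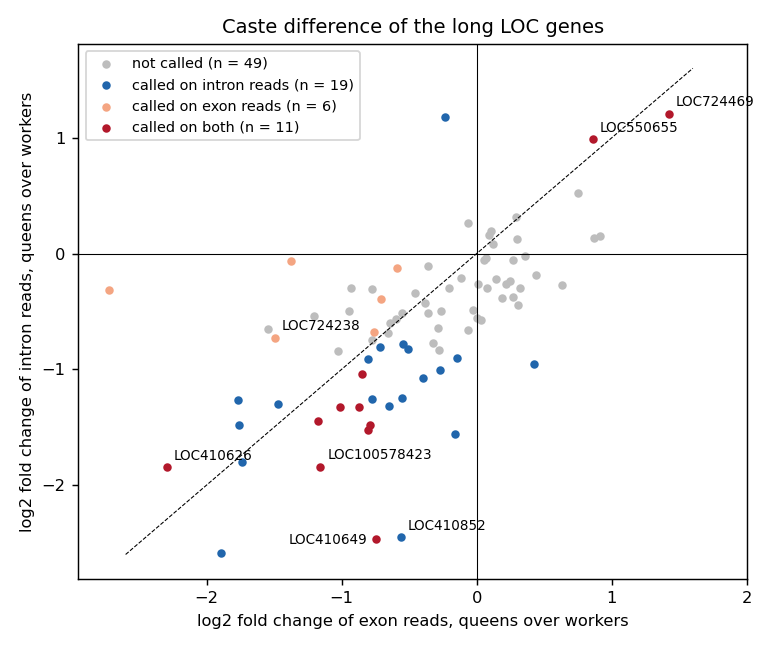
Log2 fold change of exon reads against that of intron reads, queens over workers, for the 85 long LOC genes tested on both, with a dashed line of equal change and colours for the calls. In 56 of the 85 genes both values are below 0, and LOC410649 and LOC410852 lie far below the line.

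Of the 85 long genes tested on both, 11 were called on both and all 11 in the same direction, 6 were called on exons only, 19 on introns only and 49 on neither. Of all 4134 genes tested on both, 385 were called on both, or 9.31%, and 381 of these in the same direction, while 543 were called on exons only and 241 on introns only. A test of the interaction of read class and caste asks whether the 2 changes differ. It called 4 of the 85 genes, or 4.71%, with introns further towards workers than exons, where 1.33% of all 4134 genes tested were. It called 0 further towards queens in edgeR, with 5 genes at an unadjusted p below 0.05, where 1.02% of all were called. No other tool was run on the interaction. The median interaction over the long genes was -0.22, against -0.05 over all tested genes, and without worker sample 2 these medians were 0.041 and 0.045. The count of 4 towards workers became 12 without worker sample 1, 3 without worker sample 2, when 2 were called towards queens, and 2 without queen sample 1. Over all genes 42 and 55 were called towards queens and workers with all samples, 54 and 129 without worker sample 1, 58 and 48 without worker sample 2, and 26 and 32 without queen sample 1.

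Among the 4 genes called, LOC410852 had an interaction of -1.91 on the log2 scale (SE 0.25, edgeR adjusted p = 0.0014), and its intron share was 70.5 and 59.6% in the queens and 87.2 and 88.2% in the workers. LOC410649 had one of -1.70 (SE 0.24, edgeR adjusted p = 0.0023), with intron shares of 34.8, 43.4, 64.1 and 70.6%, and was not called with single-match reads (log2 value -0.78, edgeR adjusted p = 0.16). LOC725476 had 76 and 60 exon reads in the queens and 31 and 42 in the workers, beside 85 and 75 intron reads in the queens and 101 and 123 in the workers. Its interaction was -1.38 (SE 0.29, edgeR adjusted p = 0.028), with intron reads called higher in workers (log2 fold change -0.95, edgeR adjusted p = 0.019) and exon reads not called (log2 fold change 0.43, edgeR adjusted p = 0.33). The interaction call was lost without queen sample 1 and without queen sample 2, and the intron call in 5 of 10 alternatives. LOC725092, with no overlapping gene and all intron reads matching a single place, had 155, 120, 114 and 108 exon reads and 68, 93, 134 and 211 intron reads. Its interaction was -1.38 (SE 0.33, edgeR adjusted p = 0.049). With single-match reads the value was again -1.38 and fell just short of a call (edgeR adjusted p = 0.055). The call was also lost without worker sample 2 and without queen sample 1.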

How the data were processed

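The authors used CLC Genomics Workbench to map 50-base reads of total RNA on the Amel_4.5 assembly. They deposited, per gene, counts of reads on the whole gene, on exons, across exon-exon and intron-exon borders, and of single-match reads, beside the RPKM and the median coverage. Whether poly(A) RNA was selected and whether reads were counted by strand is not given in the sources used here, so that reads of antisense genes cannot be told apart. The authors' own fold changes and p-values, and a table of transcripts, were not used. The RPKM holds no TMM factor.

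Span is the deposited end minus start, and intron length is the span minus the exon length. Counts were tested with edgeR 4.0.16 (R 4.3.3, filterByExpr, TMM factors of 0.828 to 1.21, quasi-likelihood, Benjamini-Hochberg over all genes tested), and tried on simulated data. Alternatives used DESeq2 1.42.0, limma 3.58.1, other scalings, filters and limits, single-match reads, the replicate number as a block, and leaving out each sample. The genes named are the 10 with most exon reads, up to 8 called on exons per direction, the 5 smallest adjusted p per direction on introns and interaction, the 5 highest and 5 lowest intron shares, the 3 longest, 3 on each side of the limit, and those with a name; all other genes called on exons are listed. The genes and lists were chosen with earlier results of these data known. No sequences are shown.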

Additional observations from a re-analysis of the deposited data

How the results depend on the processing

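Calls of the long LOC genes on exon reads, 2 higher in queens and 15 in workers with a median log2 fold change of -0.37, moved with the scaling and with the samples kept. With limma on log2(RPKM + 0.1), which holds no TMM factor and takes in all 115 genes, 15 were called higher in queens and 4 in workers with a median of 0.19. With log2(RPKM + 1) these were 14 and 5 with a median of 0.13. With library totals they were 18 and 5 with a median of 0.17, and with totals that leave out the 10 genes with most reads 5 and 9 with a median of -0.13. These scalings moved all genes too, from 495 calls higher in queens and 942 in workers to 3159 and 468 with log2(RPKM + 0.1), 3168 and 476 with log2(RPKM + 1), 3705 and 486 with library totals, and 1426 and 649 with the 10 genes left out of the totals. Relative to all tested genes the median stayed below 0 under each alternative run. With a limit of 50000 bases 6 were called higher in queens and 45 in workers of 215 tested, and with 200000 bases 0 and 2 of 21 in edgeR's test, with 0 and 9 at an unadjusted p below 0.05. Among the 48 tested with no overlapping gene 1 and 6 were called, or 2.08 and 12.5%, where 6.32 and 12.0% of all were. Their median was -0.51, and -0.52 relative to all tested genes. DESeq2's test, its size factors, upper-quartile scaling, single-match reads, other limits on reads and at least 100 exon reads per gene kept both counts within 1.5 times.

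On introns, 3 and 30 of 109 with a median of -0.49, library totals gave 6 and 13 with a median of 0.046, where all genes went from 122 and 546 to 697 and 231. DESeq2 called 16 higher in workers, and over all genes 68 higher in queens and 233 in workers. Of the 57 tested with no overlapping gene 14 were called higher in workers, or 24.6%, where 12.6% of all were. The interaction called 0 and 4 of 85. It called 2 with introns further towards queens when introns had TMM factors of their own, when all genes went from 42 and 55 to 77 and 40. With single-match reads it called 2 of 84 towards workers, where 31 of all 2749 were. Of the 46 with no overlapping gene it called 1 towards workers, or 2.17%, where 1.33% of all were. The cause of these differences was not tested.

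The median intron share of 64.1% was 54.5% with a limit of 50000 bases, 81.4% with 200000 bases and 57.7% in the genes with at least 100 exon reads. That of the shorter genes, 6.90%, was 5.07% with at least 100 exon reads, 7.69% with no overlapping gene and 2.22% with single-match reads. The median RPKM of the long genes, 2.94, was 4.29 with 200000 bases, 7.24 with at least 100 exon reads and 1.84 with no overlapping gene, and that of the shorter genes, 11.4, was 16.2 and 8.82 under the last 2 of these choices.

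Leaving out each sample in turn gave 0 to 2 calls higher in queens and 0 to 16 in workers on exon reads, where all genes had 37 to 434 and 222 to 859, with medians of -0.51 to -0.22 and of -0.52 to -0.23 relative to all tested genes. On introns it gave 1 to 3 and 11 to 37 (all genes 36 to 95 and 193 to 473), with medians of -0.67 to -0.29 and of -0.45 to -0.25 relative to all tested genes. The interaction gave 0 to 2 and 2 to 12 (all genes 26 to 58 and 32 to 129), with medians of -0.50 to 0.041 and of -0.35 to -0.0035 relative to all. In these fits the lone sample of a caste is assumed to vary like the pair of the other. The median intron share lay between 61.0 and 66.7% in the long and 6.66 and 7.05% in the shorter genes, and the median RPKM between 2.63 and 3.28 and between 10.7 and 12.1.

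Queen and worker samples share only a replicate number. The deviations of queen 1 and worker 1 from their caste means had a Pearson correlation of -0.043 across 7833 genes, which are not independent replicates, so the numbers were not taken as pairs. With the replicate number as a block 2 long genes were called higher in queens and 17 in workers on exons (404 and 819 over all genes) and 3 and 30 on introns (111 and 518), while the interaction called 4 and 8 (118 and 173).

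Of 1303 values of single named genes under these alternatives, 94 lost a call, 56 gained one and 0 changed sign with a call. Depth limits the exon results: 27 of the long genes could not be tested, and 33 of the 88 tested had a mean under 50 exon reads per sample. LOC408297, called on 30 exon reads, lost its call in DESeq2's test and whenever a sample was left out, and LOC408865, called on 145, kept it in 5 of 15 alternatives.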

Other observations

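Of the long LOC genes that the limits on exons and reads left out, all but LOC726331 were counted with reads. The 17 with under 10 exon reads had a median of 89 reads outside their exons, from 0 in LOC726331 to 648 in LOC409608, whose samples had 45 and 243 in the queens and 214 and 146 in the workers on 6 exon reads in all. The 15 with under 2 exons had no exon read counted and 101 to 12373 gene reads each. Of these, LOC724292 had 3521 and 3471 reads in the queens and 2088 and 3293 in the workers, and LOC413021 had 1195 and 1154 in the queens and 2878 and 2320 in the workers. For these 15 the table gives no exon length, so that their reads cannot be assigned to exons or introns. The 22 with 20 exons or more had a median intron share of 35.2%, and LOC724172, with 52 exons over 147 kb, had 7444 intron and 2374 exon reads. These genes were named after their values were seen.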
